A study of Mus musculus with 12 samples.

Results

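The array entries mmu-miR-712*, mmu-miR-715, mmu-miR-689 and mmu-miR-712 (below without the species prefix) were examined together as names that overlap ribosomal RNA. They are 4 of the 710 mouse miRNAs and star sequences on the biochip and were found by name, and all 4 were on it. They were chosen by values already seen, namely the difference in their intensity between Tff2-KO and WT mice. The genotype differences below are therefore a description with no test, and the tests concern what the choice did not use, which is how the entries vary from mouse to mouse and with sex. miR-712 and miR-712* name opposite arms of the same hairpin. By name, 0 of the 4 matched the RefSeq miRNA table, so their overlap with ribosomal RNA was not checked on sequence and their own sequences are not shown.

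RNA came from the blood cell pellets of 12 mice of the 129/SV strain, 6 Tff2-KO and 6 WT, each with 3 males and 3 females, and 1 array was run per mouse. Tff2-KO mice lack trefoil factor 2, a secreted peptide that protects the mucosa of the stomach and gut. The knock-out line had been made earlier and the WT mice came from a commercial breeder, so genotype and origin cannot be told apart. The ages of the mice and any treatment are not given in the sources used here. The biochip has no probe for Tff2 itself.

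Ribosomal RNA is made in the nucleolus as a long precursor, from which the RNAs of the ribosome are cut while the spacers between them are degraded. Short pieces of the precursor and of finished ribosomal RNA turn up among small RNAs, and some of them were once catalogued as miRNAs. In mouse endothelium, miR-712 has been described as a product of a spacer of the precursor that is raised by disturbed blood flow. In blood, leukocytes and young red cells carry ribosomes, while mature red cells of mammals have lost the nucleus and nearly all ribosomes. Less of an RNA in whole blood may come from fewer cells of a type or from less RNA per cell, and these cannot be told apart here.

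Mean raw intensities of the arrays lay at 543 to 1151 for Tff2-KO and at 375 to 999.98 for WT mice. Values below 0 numbered 20 to 43 and 14 to 25 per array. All 4 red cell markers (miR-486, miR-16, miR-451 and miR-144) exceeded background, taken here as the absolute value of an array's lowest entry, on all 12 arrays. Of the 5 leukocyte markers 3 were, while miR-142-3p was above it on 1 array and miR-155 on 5. Of 6 markers of liver, muscle and brain, 2 were above it on all arrays. After quantile normalization, the red cell markers summed to 55972 to 76829 (Tff2-KO) and 57404 to 78260 (WT), and the leukocyte markers to 2558 to 4554 and 1831 to 5227. Over the 12 mice, with genotype means removed, the r of these sums with miR-712* was -0.03 and -0.41. The 3 platelet markers, of which miR-126-3p was above background on all arrays and miR-126-5p on none, summed to 326 to 477 (Tff2-KO) and 245 to 379 (WT), with r = 0.16. All 3 had a higher mean in Tff2-KO mice (log2 difference of miR-126-3p 0.51, standard error 0.24), and 0 had an unadjusted p under 0.05 in limma. The log2 differences of the red cell markers were -0.002 for miR-486 (standard error 0.17), -0.07 for miR-16 (0.19), -0.32 for miR-451 (0.31) and -0.29 for miR-144 (0.44). All 4 means were thus lower in Tff2-KO mice by some amount, beside 49.6% of all entries, and 0 of the 4 passed that threshold. Of the leukocyte markers, 2 were lower and 3 higher. The 1 that passed it was miR-142-3p (log2 difference 2.58, standard error 0.87), beside 3.80% of all entries higher. The markers of other tissues summed to 689 to 5206 and 521 to 6634, with r = 0.30. Their part in the differences below was not tested.

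All 4 entries were above background on all 12 arrays. By mean log2 intensity, miR-715 was at the 89.2nd percentile of the 710 entries, miR-712* at the 84.5th, miR-689 at the 76.9th and miR-712 at the 68.2nd. Intensities of different probes are not compared with each other as amounts of RNA. The values that follow compare the same entry between mice.

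miR-712*, miR-715 and miR-689 were lower in Tff2-KO than in WT mice, and miR-712 was at nearly the same level in both. The raw intensity of miR-712* was between 188 and 268 (median 234) in the 6 Tff2-KO mice and between 324 and 604 (median 356) in the 6 WT mice. All WT mice thus lay above all Tff2-KO mice before normalization. Among the 710 entries this was the case for miR-712* alone (0.141%), and after normalization, where it no longer held for any of the 4, for 5 entries (0.704%). After quantile normalization, its intensity was 186 to 331 (median 211) in Tff2-KO and 302 to 605 (median 518) in WT mice, with an overlap of Tff2-KO replicate 5 and WT replicate 4. The geometric means were 232 and 477, which is a log2 difference of -1.04 with a standard error of 0.22 (6 mice of each genotype).

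miR-715 had raw intensities of 316 to 616 (median 434) among Tff2-KO mice and of 600 to 1261 (median 634) among WT mice. Only Tff2-KO replicate 5 reached into the WT range. Normalized, it lay between 279 and 694 (median 375) in Tff2-KO and between 562 and 1334 (median 1004) in WT mice, and 34 of the 36 comparisons of a WT with a Tff2-KO mouse had the WT mouse higher. The log2 difference was -1.16 (standard error 0.29). miR-712* and miR-715 were the entries of the 4 with at least a 2-fold lower level, as were 4.37% of all 710.

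miR-689 had raw intensities of 140 to 192 (median 170) among the Tff2-KO mice. Of the WT mice (median 236), 5 lay between 220 and 412, and replicate 1 lay within the Tff2-KO range. Normalized, these were 109 to 232 (median 168) and 169 to 449 (median 271), so that the genotypes overlapped, with WT replicate 1 and WT replicate 4 lowest among the WT mice. The geometric means were 167 and 265, and the log2 difference was -0.66 (standard error 0.28).

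miR-712, the other arm of the miR-712* hairpin, had raw intensities of 84 to 256 (median 128) among Tff2-KO mice and of 120 to 176 (median 160.0) among WT mice. The Tff2-KO mice covered the whole WT range, with the highest and the lowest normalized value of all 12 mice among them (251 in replicate 3 and 92.8 in replicate 1). The log2 difference was -0.06 (standard error 0.26), from geometric means of 151 and 157. Within an array, the log2 difference of miR-712 minus miR-712* was thus higher by 0.98 in Tff2-KO mice after normalization and by 0.67 in the raw values (SD 0.60 and 0.59 within genotypes).

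This contrast chose the 4 entries, and over all 710 entries 0 passed an adjusted p under 0.05 in limma (0.00%), 40 were lower at an unadjusted p under 0.05 (5.63%), and 49.6% were lower by any amount. The size of the decrease moved with the scaling of the arrays. miR-712* was at -0.75 without normalization between arrays and at -0.60 with median scaling, and miR-715 at -0.73 and -0.59. miR-689 lay between -0.71 and -0.41 over the alternatives that left out no single mouse. These 3 entries were lower in Tff2-KO mice under every alternative run, while miR-712 ranged from -0.16 to 0.07 over the same alternatives and changed sign.

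**Figure D1:**
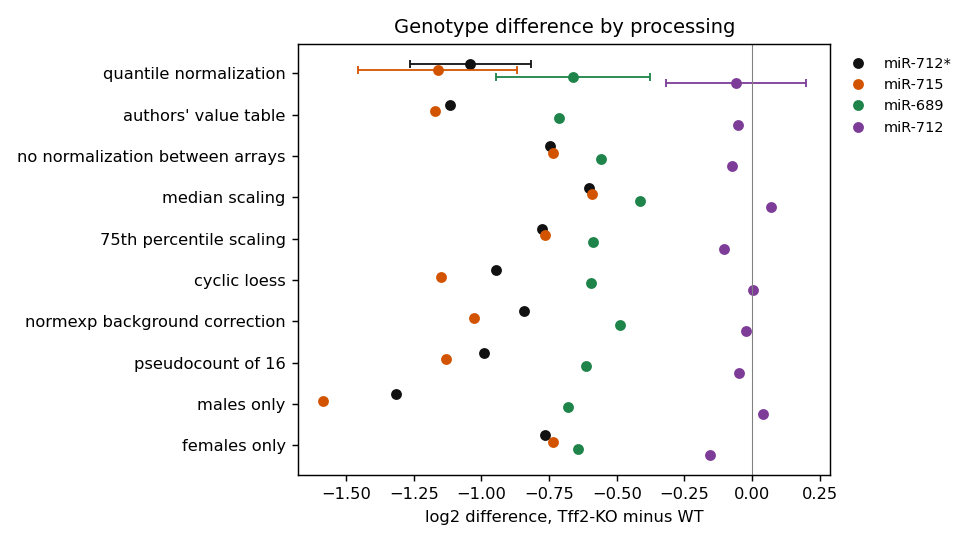
Log2 difference of Tff2-KO minus WT mice (horizontal axis) for each of the 4 entries under 10 ways of processing or subsets of mice (vertical axis), with bars of 1 standard error at quantile normalization (6 mice of each genotype). miR-712*, miR-715 and miR-689 stay below 0 in each row and miR-712 lies close to 0.

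To ask whether the entries also vary together from mouse to mouse, their log2 values were correlated over the 12 mice. The mean of each genotype was removed from the values beforehand. With 1 array per mouse, variation between mice and variation between arrays cannot be told apart. miR-712* and miR-715 varied together closely. Pearson's r was 0.98 (two-sided exact permutation p = 3.86e-06, mice permuted within genotype) and Spearman's rho was 0.99 (exact permutation p = 9.65e-06). Without the 2 mice farthest from the median, WT replicate 4 and Tff2-KO replicate 5, r was 0.98 (exact permutation p = 0.000139).

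After quantile normalization, the order of mice within each genotype was the same or nearly the same for both entries. In Tff2-KO mice, both entries were highest in replicate 5 (normalized intensity 331 for miR-712* and 694 for miR-715), then in replicate 6 (293 and 673) and replicate 1 (223.2 and 407). Replicates 4 (199 and 343), 3 (194 and 324) and 2 (186 and 279) followed in the same order for both. The order of the 6 mice was identical, with r = 0.99 and rho = 1 (exact permutation p = 0.00139 and 0.00278, n = 6 mice). These p-values are the smallest that the 720 permutations allow for r and rho. In the raw values of these mice, both entries were highest in replicate 5 (268 and 616) and lowest in replicate 3 (188 and 316). Replicate 6 (224 and 500) lay below replicates 1 and 2 in miR-712* only. In WT mice, both entries were highest in replicate 5 (605 and 1334), followed by replicate 2 (568 and 1201), and lowest in replicate 4 (302 and 562). Replicates 6 (521 and 989), 1 (515 and 1018) and 3 (424 and 815) lay between them, and only replicates 6 and 1 changed places (r = 0.99 and rho = 0.94, exact permutation p = 0.00278 and 0.0167, n = 6 mice). This order of the WT mice depended on normalization. In the raw values, replicate 4 (400 and 800) lay below replicate 6 only (604 and 1261). Replicate 5 (352 and 640) was then in the middle, and replicate 3 (324 and 600) was lowest.

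**Figure D2:**
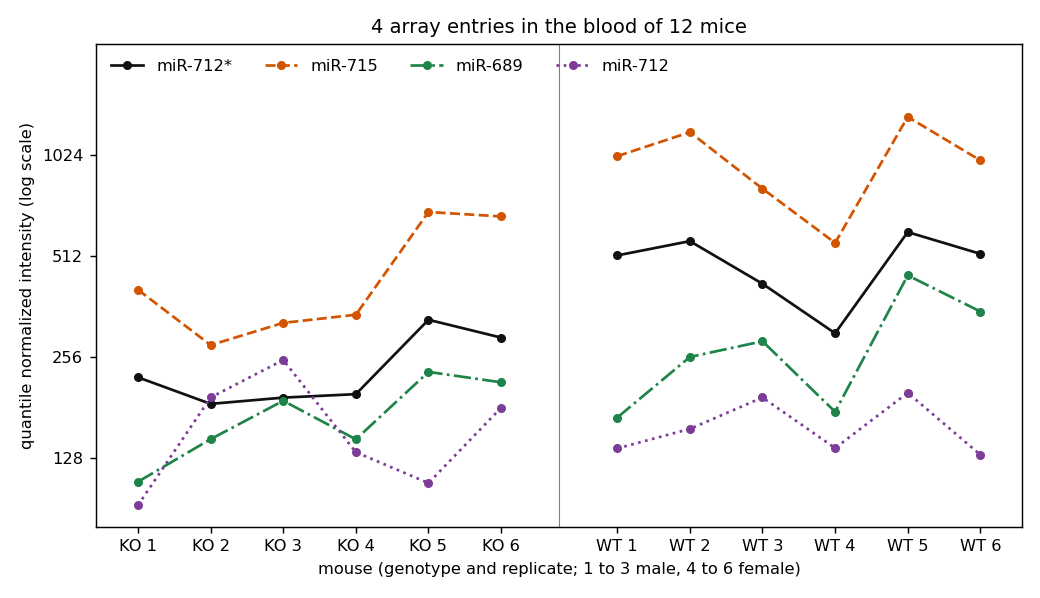
Quantile normalized intensity on a log scale (vertical axis) of the 4 entries in each of 6 Tff2-KO and 6 WT mice (horizontal axis, 1 array each), with lines joining the mice of a genotype to show the profile of an entry. The profiles of miR-712* and miR-715 rise and fall together, from 186 and 279 in KO 2 to 605 and 1334 in WT 5, while miR-712 follows another course.

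Against the whole array, this correlation stood at the upper end. Of the 251695 pairs that the 710 entries form, it was the highest, where the median pair had r = -0.01 and 5% of pairs had r above 0.58. The second highest pair was miR-503 and miR-216a, also with r = 0.98. The place of miR-712* and miR-715 among all pairs was between 1 and 5 in 7 of the settings run, among them the authors' value table, cyclic loess, and scaling by the median or the 75th percentile. It was 256 without normalization between arrays, where r was 0.93 (exact permutation p = 0.000359) and the median pair had r = 0.17. Without WT replicate 6, far above the other WT mice in the raw values, it was 0.85 (exact permutation p = 0.00345, n = 11 mice).

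In limma fits with genotype and the level of miR-712* as terms, 3 of the other entries were associated with miR-712* at an adjusted p under 0.05 (0.423%), and miR-715 came first (slope 1.39, standard error 0.20, adjusted p = 0.0181). The other 2 were miR-148a and miR-204, of which miR-204 was above background on 3 arrays only. With the level of miR-715 as the term, 0 entries passed (0.00%), and 17.5% had an unadjusted p under 0.05, where it was 17.6% with miR-712*. miR-712* then had an adjusted p of 0.0567. When 1 mouse was left out in turn, the adjusted p of miR-715 with miR-712* in limma ran from 0.0218 to 0.104. It was above 0.05 without Tff2-KO replicate 3, 4, 5 or 6 and without WT replicate 3 or 4. Without normalization between arrays it was 0.565 (unadjusted p = 0.00387). Ordered by p, miR-715 was then at place 4, at place 3 with median scaling and at place 2 with 75th percentile scaling. It stayed first with the authors' table, cyclic loess, normexp and a pseudocount.

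The distance between both entries within an array varied less than either entry. The log2 difference of miR-715 and miR-712* had an SD of 0.17 within genotypes, against 0.36 for miR-712* and 0.51 for miR-715. Its mean was 0.12 lower in Tff2-KO than in WT mice after normalization (SD 0.23 and 0.10, n = 6 mice each), and 0.01 higher in the raw values (SD 0.20 and 0.10), which do not depend on the scaling of an array.

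miR-689 had lower correlations with the pair, and miR-712 had none that passed. miR-689 and miR-712* had r = 0.61 (rho = 0.62, exact permutation p = 0.0477 and 0.0439), and 4.13% of all pairs on the array had an r at least as high. miR-689 and miR-715 had r = 0.59 (rho = 0.53, exact permutation p = 0.0475 and 0.0881). Without WT replicate 4 and Tff2-KO replicate 5, these fell to 0.35 and 0.36 (exact permutation p = 0.319 and 0.289), and neither was detected in the fewer mice left. Leaving out any 1 mouse kept the exact permutation p under 0.05 for miR-712* only without Tff2-KO replicate 1 or 3 or WT replicate 1 or 3, and for miR-715 only without Tff2-KO replicate 1 or 3 or WT replicate 1 or 2. In limma, adjusted over all other entries, miR-689 had an adjusted p of 0.277 with miR-712* and of 0.288 with miR-715. With the level of miR-689 as the term 0 entries passed (0.00%), and 74 had an unadjusted p under 0.05 (10.4%). Like the pair, miR-689 after normalization was highest in replicates 5 and 6 of the Tff2-KO mice (232 and 216) and in replicate 5 of the WT mice (449). Unlike the pair, it was then lowest in replicate 1 of both genotypes (109 and 169).

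No common variation of miR-712 with its own star sequence was detected. The correlation of miR-712 and miR-712* was -0.16 (rho = -0.28, exact permutation p = 0.630 and 0.421), with -0.41 in Tff2-KO and 0.28 in WT mice (exact permutation p = 0.390 and 0.651, n = 6 each). With miR-715, miR-712 had r = -0.17 (rho = -0.29, exact permutation p = 0.638 and 0.420). With miR-689 it had r = 0.40 (rho = 0.27, exact permutation p = 0.173 and 0.404), and without Tff2-KO replicate 5 r = 0.61 (exact permutation p = 0.0299). In Tff2-KO replicate 5, where miR-712* and miR-715 were highest of their genotype, miR-712 after normalization was second lowest at 108. In Tff2-KO replicate 3 it was then highest at 251. In limma, 0 entries were associated with miR-712 at an adjusted p under 0.05 (0.00%), and 36 had an unadjusted p under 0.05 (5.08%). With these, all 6 pairs that the 4 entries form have been given.

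**Figure D3:**
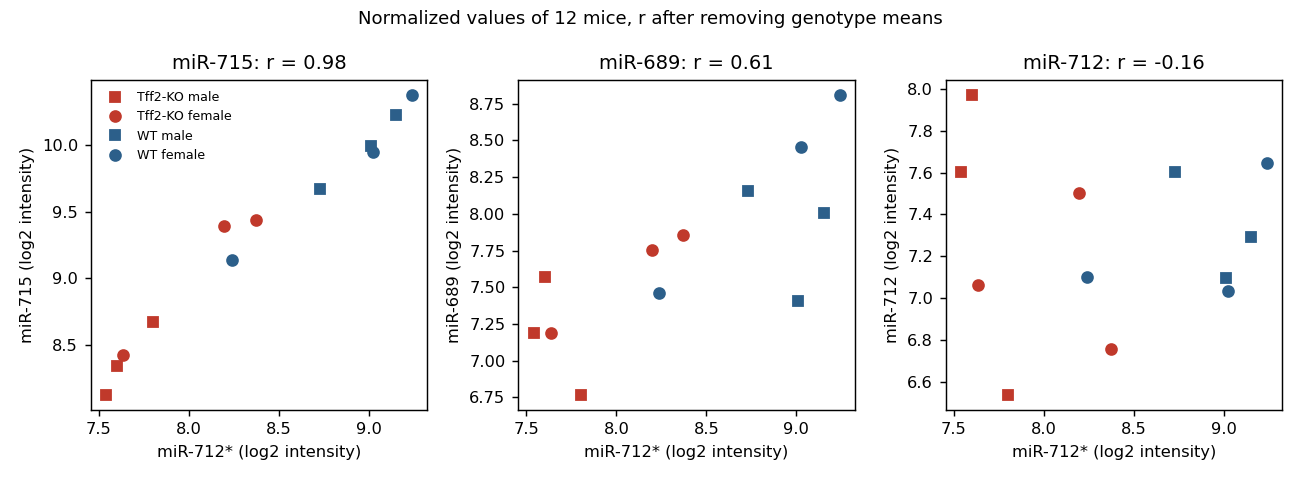
Log2 normalized intensity of miR-715, miR-689 and miR-712 (vertical axes) against miR-712* (horizontal axes) in 12 mice, coloured by genotype and with squares for males and circles for females. The points of miR-715 lie along a line in both genotypes (r = 0.98 after removal of the genotype means), those of miR-689 scatter more (0.61), and those of miR-712 show no slope (-0.16).

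**Figure D4:**
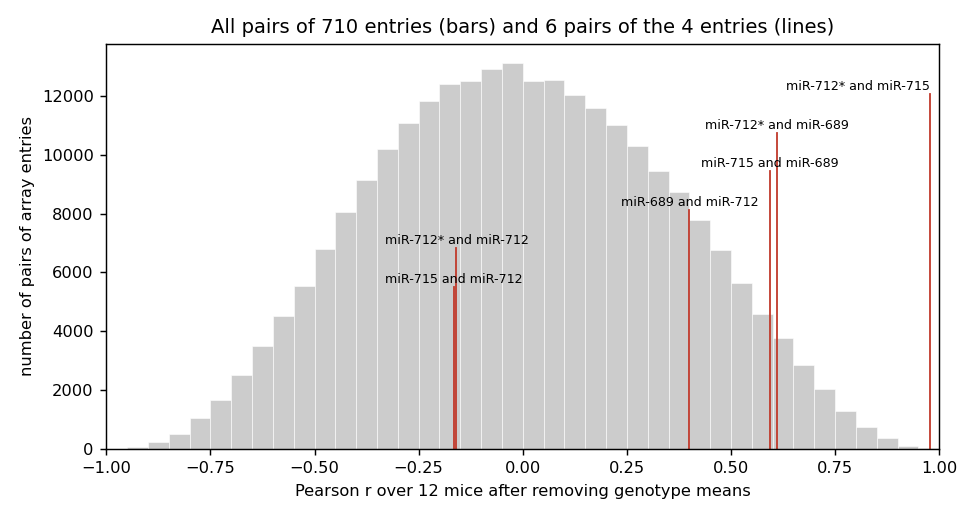
Pearson's r over 12 mice, after removal of the genotype means, for all 251695 pairs of the 710 entries (grey bars, number of pairs on the vertical axis), with the 6 pairs of the 4 entries as red lines, whose heights carry no value. The line of miR-712* and miR-715 at 0.98 stands at the right edge and the other 5 lines lie between -0.17 and 0.61.

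After normalization, the pair and the brightness of the array moved in opposite directions. miR-712* and miR-715 were then lower on arrays with a higher mean raw intensity (r = -0.66 and -0.70, rho = -0.61 and -0.66, exact permutation p = 0.0241, 0.0102, 0.0430 and 0.0219 in that order, over 12 mice with genotype means removed). Without the 2 arrays farthest in brightness, r was -0.68 and -0.75 (exact permutation p = 0.0682 and 0.0352, n = 10). In the raw values, the same correlations were 0.46 and 0.35 (exact permutation p = 0.200 and 0.336). With the mean raw intensity of the array removed beside genotype, an alternative chosen after seeing the data, miR-712* and miR-715 had r = 0.96. The part of array-wide signal in their correlation was not tested. In limma, 0 of the 710 entries were associated with array brightness at an adjusted p under 0.05 (0.00%), and 134 had an unadjusted p under 0.05 (18.9%). The adjusted p in limma was 0.239 for miR-712* and 0.171 for miR-715. The correlations of miR-689 and miR-712 with brightness were -0.15 and 0.04, and those of the 4 entries with the number of values below 0 had a Pearson's r between -0.25 and 0.20 and a rho between -0.39 and 0.01. Their exact permutation p over 12 mice was 0.236 or higher, while 8.03% of all entries had an unadjusted p under 0.05 in limma for that number. In all, 8 relations to array measures were computed.

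Among the entries of the brighter part of the array, miR-148a and miR-196a* had the patterns most like miR-712* (r = 0.92 and 0.91 over 12 mice with genotype means removed) and miR-715 (0.92 for both), after miR-712* and miR-715 themselves. miR-148a is an abundant miRNA of the miR-148/152 family. Without normalization between arrays, its r with miR-712* was 0.82 and with miR-715 0.86, and that of miR-196a* was 0.69 with both. Between the genotypes, miR-148a had geometric means of 805 (Tff2-KO) and 1069.9 (WT), and its log2 difference was -0.41 (standard error 0.32), beside -1.04 and -1.16 for miR-712* and miR-715. miR-689 was most like miR-340-5p (r = 0.85), miR-335-5p (0.84) and miR-1956 (0.81), and miR-712 most like miR-1939 (0.88), miR-674 (0.82) and miR-181d (0.77). These neighbours are given as a description. In limma, adjusted over all other entries, miR-148a had an adjusted p of 0.0477 with miR-712* and of 0.0567 with miR-715. The 6 neighbours of miR-689 and miR-712 had adjusted p-values from 0.254 to 0.931.

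The mature sequences of 6 of these 8 neighbours, from RefSeq on GRCm38.p6, are shown to identify them, while miR-196a* and miR-1939 are named only. They are written 5′ to 3′ with the seed (bases 2 to 8), which pairs with target mRNAs, in capitals, and the 6 seeds are all different. The probes are named as on the array, and miR-148a and miR-181d are the arms now called miR-148a-3p and miR-181d-5p, and miR-674 the arm now called miR-674-5p.
miR-148a: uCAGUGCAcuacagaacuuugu
miR-335-5p: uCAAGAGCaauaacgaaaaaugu
miR-340-5p: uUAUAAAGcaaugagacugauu
miR-1956: aGUCCAGGgcugagucagcgga
miR-674: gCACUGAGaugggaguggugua
miR-181d: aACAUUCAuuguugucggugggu

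The miR-148a sequence lies at chr6:51269829-51269850 on the minus strand, away from the other 5, of which miR-335-5p is on the same chromosome at chr6:30741314-30741336 on the plus strand.

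Of 21 other entries in a wider list, miR-714, miR-2132 to miR-2146, miR-2182, miR-1937a to c and miR-720, several of which are known as pieces of ribosomal or transfer RNA, 13 had a higher and 8 a lower mean in Tff2-KO mice. The median of their log2 differences was 0.13, beside 0.01 over all 710 entries, and 0 of the 21 had an unadjusted p under 0.05 in limma, beside 5.63% of all entries lower and 3.80% higher. miR-2135 had the smallest p, with geometric means of 146 (Tff2-KO) and 107 (WT) and a log2 difference of 0.45 (standard error 0.24). It was followed by miR-2142, at 17945 and 21457 (-0.26, standard error 0.16). From mouse to mouse, the r of its entries with miR-712* ran from -0.84 (miR-2145) to 0.46 (miR-2137) with a median of 0.08, beside a median of 0.00 over all other entries. None of the 21 was associated with miR-712* at an adjusted p under 0.05 in limma. miR-689 had its highest r in this list with miR-1937b (0.72) and miR-1937c (0.68), which are bright entries that lie in transfer RNA sequence.

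The 37 other entries numbered miR-680 to miR-719 share miR-714 with the wider list. Of the 37, 22 had a lower and 15 a higher mean in Tff2-KO mice, and the median of their log2 differences was -0.27. At an unadjusted p under 0.05 in limma 4 were lower (background 5.63% of all entries) and 2 higher (background 3.80%), and 0 passed after adjustment over all 710. miR-719, with the smallest p, had geometric means of 161 (Tff2-KO) and 261 (WT) and a log2 difference of -0.70 (standard error 0.22, adjusted p = 0.335). It had r = 0.63 with miR-712* and 0.61 with miR-715. The r of the 37 entries with miR-712* had a median of 0.25 and reached 0.85 (miR-687).

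No difference between the sexes passed for any of the 4 entries. Female minus male log2 differences in limma, with genotype as covariate, were 0.15 for miR-712* (standard error 0.23), 0.28 for miR-715 (0.29), 0.40 for miR-689 (0.27) and -0.17 for miR-712 (0.26), with adjusted p-values from 0.678 to 0.854 over 710 entries. On the whole array 0 passed (0.00%) and 56 had an unadjusted p under 0.05 (7.89%). For miR-712*, the geometric means were 200.5 in male and 268 in female Tff2-KO mice and 499 and 457 in male and female WT mice, so the log2 difference between genotypes was -1.32 in males and -0.77 in females. The widest gap was that of miR-715, with -1.59 in males and -0.74 in females, while miR-689 had -0.68 and -0.64 and miR-712 had 0.04 and -0.16. In limma the adjusted p of the difference between the sexes in the genotype effect was 0.568 to 0.984 for the 4 entries, and 1 of 710 entries passed (0.141%), with 10.0% at an unadjusted p under 0.05. After normalization, high values of miR-712* and miR-715 in Tff2-KO mice belonged to 2 females, replicates 5 and 6, while the other female, replicate 4, lay with the males. In the raw values this held for miR-715 but not for miR-712*. There, replicate 6 (224) lay below the males of replicates 1 and 2 (256 and 244).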

How the data were processed

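RNA of 12 blood samples had been hybridized to the Geniom biochip for mouse miRNAs (7 spots for each of 710 entries) and labelled with biotin on the chip. The authors took the median signal of a spot, subtracted the background and took the median over the spots. The deposited raw intensities were not normalized between arrays. A second deposited table holds linear intensities that the authors quantile normalized.

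Quantile normalization of the raw table used limma 3.58.1 in R 4.3.3, with a floor of 1 before log2. All 710 entries were fitted with lmFit and eBayes, p-values were adjusted by Benjamini-Hochberg and the threshold was 0.05. Correlations used log2 values with genotype means removed and two-sided exact permutation tests over all 518400 permutations of mice within genotypes (720 within a single genotype). Arrays hold no counts, and the 12 of them set the precision. SD is over mice. Labels do not say whether mice were littermates.

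The entries, the lists and the tests were chosen with earlier results of these data known. Named were the 4 entries, up to 4 entries with the smallest p of each list, and for each of the 4 the 3 entries with the highest r among those brighter than the array-wide median. Entries at the ends of a range of r, the entries called with miR-712*, the second highest pair and the miR-1937 entries were named after their values were seen. Alternatives were the authors' table, no normalization, median and 75th percentile scaling, cyclic loess, normexp with an offset of 50, a pseudocount of 16, a replicate block, array weights, a sex covariate, brighter entries only, each sex alone and each mouse left out in turn. The fits were tested on simulated data. Plots were made in Python 3.11.15 (matplotlib 3.10.9).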

Additional observations from a re-analysis of the deposited data

Results flagged for a closer look

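In the raw intensities, WT replicate 6 lay far above the other WT mice in both entries of the pair. Its miR-712* was at 604, where the others lay between 324 and 400, and its miR-715 was at 1261, where the others lay between 600 and 800. After quantile normalization this mouse was not far from the others in either. Of 16 groups of 6 mice tested (4 entries, 2 genotypes, raw and normalized), these 2 had such a value, where chance gives about 5%. Both came from the same array and from 2 entries with r = 0.93 in the raw values. The groups are therefore not independent, and no excess over chance can be read from them.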

How the results depend on the processing

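The decrease of miR-712*, miR-715 and miR-689 in Tff2-KO mice and the correlation of miR-712* with miR-715 kept their direction under every alternative run, the latter with r from 0.85 to 0.98 and, without 1 mouse in turn, from 0.97 to 0.99. The genotype difference moved by more than the SD between mice with median scaling (-0.60 for miR-712* and -0.59 for miR-715) and, in an alternative chosen after seeing the data, without normalization and without WT replicate 6 (-0.62 and -0.57). The median difference of all entries was -0.12 with 75th percentile scaling. The correlation of miR-715 with miR-689 missed the threshold with the authors' table (0.58), without normalization (0.58), with cyclic loess (0.53) and with sex removed (0.60), and that of miR-712* with miR-689 without normalization (0.63) and with sex removed (0.64). Without normalization and WT replicate 6 they were 0.13 and 0.14. With median and 75th percentile scaling both correlations were higher and passed the threshold. There, r was 0.71 and 0.69 for miR-715 with miR-689, and 0.79 and 0.75 for miR-712* with miR-689. Without 1 mouse in turn, r ran from 0.49 to 0.75 for miR-712* and miR-689, from 0.49 to 0.71 for miR-715 and miR-689, from -0.34 to 0.043 for miR-712* and miR-712, from -0.30 to 0.028 for miR-715 and miR-712, and from 0.21 to 0.61 for miR-689 and miR-712.

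The slope of miR-715 on miR-712* missed the adjusted threshold without normalization (1.28) and with 75th percentile scaling (1.41), and ran from 1.32 to 1.55 without 1 mouse in turn. Entries associated with miR-712* numbered 1 with the authors' table, 0 without normalization, 1 with 75th percentile scaling, 5 with cyclic loess, 8 with normexp and 6 among brighter entries. Those associated with miR-715 numbered 4 with median scaling, 1 with 75th percentile scaling, 10 with cyclic loess, 7 with normexp, 1 with a pseudocount and 18 among brighter entries, and miR-689 had 1 with 75th percentile scaling. Without 1 mouse in turn, from 0 to 2 were associated with miR-712* and from 0 to 1 with miR-715. The difference of the genotype effect between the sexes, which passed nowhere, turned its sign without normalization for miR-712* (-0.35), miR-715 (-0.18) and miR-689 (-0.61), and for miR-689 with median scaling (-0.046) and normexp (-0.024). Without 1 mouse in turn it ran from -0.35 to 0.32 for miR-689 and from -0.61 to 0.10 for miR-712. The causes were not tested.

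Replicate numbers are shared between the genotypes. Over all entries, same-numbered mice did not deviate together (r from -0.17 to 0.11, above 0.1 for 2 of 6 numbers). Of 6 WT mice, 1 correlated best with its own number. For miR-689 alone, the normalized values had the same order of replicate numbers in both genotypes. A replicate block lowered its standard error from 0.28 to 0.19. That of miR-712* went from 0.22 to 0.21, of miR-715 from 0.29 to 0.25 and of miR-712 from 0.26 to 0.25. With each number once per genotype, a replicate block cannot change the genotype differences (-1.04, -1.16, -0.66 and -0.06 for miR-712*, miR-715, miR-689 and miR-712), as sex as covariate cannot. It moved the number of entries at an unadjusted p under 0.05 from 67 to 50, with 0 after adjustment in both fits of limma.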
